A study of Mus musculus with 6 samples.

Results

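The genes described here are 45 genes of the lysosome, of autophagy and of their control by the transcription factor TFEB, chosen by symbol from a list set by role. The list was chosen with earlier results of these data known. All 45 were among the 24054 genes of the deposited tables and all 45 passed the filter on low counts that left 12689 genes to test. The cells were bone marrow-derived macrophages of Kindlin3-integrin mutant C57BL/6 mice and of C57BL/6 wild-type mice, grown for 7 days in L929-conditioned medium, the macrophage growth factor source secreted by a fibroblast line, and kept for 24 hours with 50 µg/ml oxidised low-density lipoprotein (oxLDL) or without it. There were 6 libraries of polyadenylated RNA: 2 mutant oxLDL, 2 mutant untreated, 1 wild type oxLDL and 1 wild type untreated. The mutant samples are titled KI, the labels give neither the kind of mutation nor the age or number of the animals, and no label ties replicates to separate mice or dishes. The p-values therefore cover the spread between these 6 libraries, which may be technical. Total counts were between 11281692 and 24273551 per library. Levels are given in CPM, read counts relative to the library total after scaling with a trimmed mean of M-values (TMM) factor. A gene rose or fell where edgeR's quasi-likelihood test gave a false discovery rate under 0.05 over all 12689 genes, which is the adjusted p printed below, and the error after each log2 fold change is a standard error (SE).

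Lysosomes are acid compartments in which proteases, glycosidases and lipases break down material taken up from outside or delivered by autophagy. A proton pump, the V-ATPase, keeps them acid, and its membrane part carries a peripheral ATPase part. TFEB and its relatives TFE3, MITF and TFEC bind a palindromic element in the promoters of many lysosomal genes, called the CLEAR element. The kinase complex mTORC1, recruited to the lysosome by Rag GTPases, phosphorylates TFEB and holds it in the cytoplasm, and folliculin with its FNIP partners acts on the Rag proteins in this step. In macrophages that take up modified lipoprotein, lysosomal acid lipase frees cholesterol from its esters, and NPC2 and NPC1 carry it out of the lysosome.

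Before the results, some features of the libraries bear on them. Fermt3, the gene of Kindlin-3, measured 146 and 153 CPM with oxLDL in the mutant and 188 CPM with oxLDL in wild type, against 241 and 249 CPM in the untreated mutant and 403 CPM in untreated wild type. Of 7 macrophage markers measured all 7 were detected in every library, among them Csf1r at 646 to 1949 CPM. The summed level of 16 pancreatic markers was 195 and 155 CPM with oxLDL in the mutant and 263 CPM in untreated wild type, against 1.79 to 3.47 CPM in the others. That split of the libraries is the same as the contrast of the oxLDL responses of the genotypes, so the pancreatic transcripts and a difference in response cannot be told apart. Within mutant cells the split also runs along oxLDL, and within untreated or oxLDL-treated cells along genotype, so in those comparisons too the split and the groups cannot be told apart. Of the 16 markers all 16 were called higher with oxLDL in the mutant, and none was called with oxLDL across genotypes. Across genotypes too all 16 had positive log2 fold changes, with a median of 1.89 and wide errors (Amy2a5 3.84 ± 3.58). The missing calls therefore do not show that this comparison is free of the split. The summed level of the 7 macrophage markers was 9627 to 19006 CPM in oxLDL libraries, against 17999.9 to 29276 CPM in untreated libraries, and its part in the results was not tested. The largest share of that sum in every library was Lyz2 (lysozyme), which did not pass. Of the other markers Cd68 and Mertk rose with oxLDL and Csf1r, Emr1, Fcgr1 and Cd14 fell. The 6 neutrophil markers measured summed to 26.7 CPM in wild type untreated and to at most 2.11 CPM elsewhere, the 6 fibroblast markers to at most 2.03 CPM and the 5 dendritic cell markers to at most 5.62 CPM. The untreated mutant pair differed along the gene set itself: 43 of the 45 members were higher in replicate 1 than in replicate 2, by a median of 0.25 on the log2 scale, against 51.2% of all genes tested and a median of 0.01. In the mutant oxLDL pair 26 of 45 were higher in replicate 1. In bulk RNA, fewer cells of a type and less RNA per cell cannot be told apart.

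Most of the set rose with oxLDL. With the genotypes combined (3 oxLDL against 3 untreated libraries, genotype as a term), 29 of 45 members rose, 2 fell and 14 did not pass. Of all genes tested 40.5% passed, 19.1% rising and 21.4% falling. Because earlier results were known when the members were chosen, these shares describe the set and are no independent test of it. The median log2 fold change of the members was 0.73, and that of all genes was 0.01. Those that rose by at least 2-fold were 15 of 45, against 5.94% of all genes, and none fell that far, against 11.2% of all genes. In 30 members every oxLDL library lay above every untreated library, which held for 24.5% of all genes, and in 2 members every one lay below, which held for 23.3%. The members together took 9.41% and 8.78% of the counts in mutant oxLDL and 7.51% in wild type oxLDL libraries, against 4.69% and 3.48% in mutant untreated and 3.25% in wild type untreated libraries. Gpnmb, Ctsd, Psap and Ctsb together made up most of these counts in every library, so the shares mainly follow those genes.

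**Figure D1:**
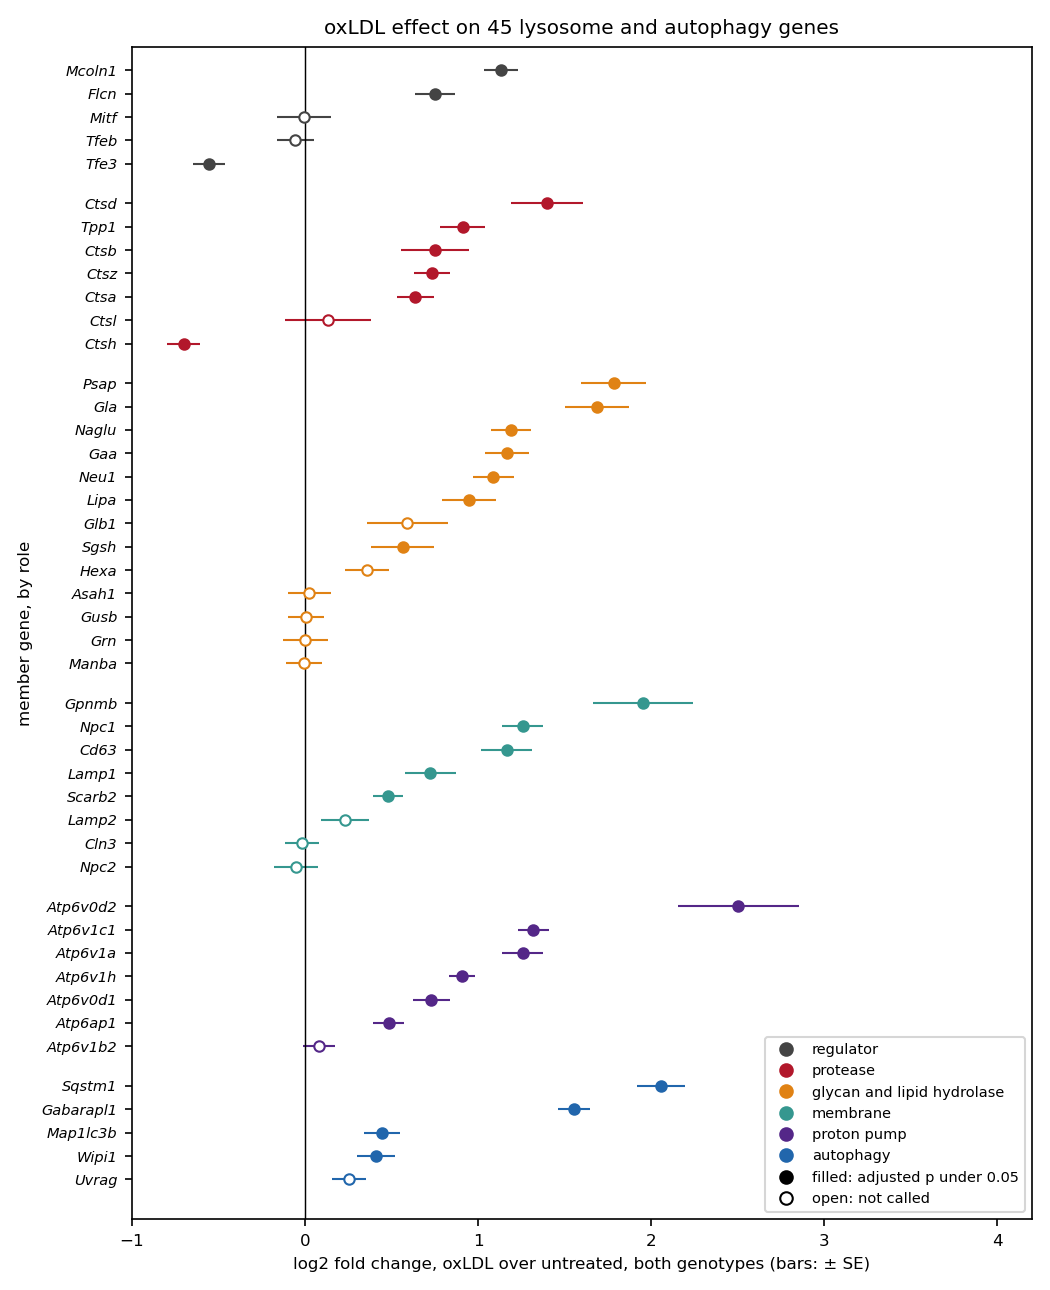
Log2 fold change of oxLDL over untreated libraries across both genotypes for each of the 45 members (x axis), arranged by role (y axis), with SE bars from the fit to 6 libraries. Filled points have an adjusted p under 0.05. Filled points run from Ctsh at -0.70 and Tfe3 at -0.55, left of 0, to Sqstm1 at 2.06 and Atp6v0d2 at 2.50 on the right.

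Among mutant cells alone (2 oxLDL against 2 untreated libraries), 27 members rose and 2 fell, where 16.5% of all genes rose and 19.1% fell, with a median log2 fold change of 0.74. Of these 29 calls 20 held in all 10 alternative settings, and those of Tfe3, Ctsa, Ctsd, Lipa, Lamp1, Scarb2, Gpnmb, Atp6ap1 and Map1lc3b were lost in at least 1. Without mutant untreated replicate 2 there were 19 members higher and 1 lower. Wild-type cells gave 1 library against 1, so they were described by size. There 15 members were at least 2-fold higher with oxLDL and none was at least 2-fold lower, and of the 9840 genes that reached 5 CPM in 1 of the pair 7.92% were at least 2-fold higher and 11.7% lower. The median log2 fold change of the members in wild type was 0.63. A test there has to borrow the spread of the mutant pairs for both single libraries, and edgeR's test then gave 19 members higher and 2 lower, where 10.4% of all genes were higher and 12.8% lower.

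The promoters of the members were searched for the letters that TFEB and its relatives bind, because the set was assembled around that factor. RefSeq promoters (build GRCm38.p6, 250 bases before to 50 bases after each annotated start) were matched by symbol for 37 of the 45 members. The others were Ctsb, Ctsh, Asah1, Npc1, Atp6v0d2, Atp6v1b2, Atp6v1c1 and Atp6v1h. The CLEAR core TCACGTGA, which reads the same on both strands and contains the E-box CACGTG, stood in a promoter of 7 of the 37 members (18.9%), against 1.12% of 27025 genes. The longer palindrome, with a G before the core and a C after it, was found for 1 member, Cln3, and for 0.37% of all genes. The E-box, within a core or not, was in 13 of the 37 (35.1%), against 8.09% of genes, and the M-box TCATGTGA, or its reverse TCACATGA, in 3 (8.11%, against 1.15%). Of the 24 matched members that rose with oxLDL 6 held the core, and of the 13 others 1 did, which is Cln3. The 7 stretches follow, 5′ to 3′ on the strand of the gene, with 20 bases on each side and the core in capitals.
Mcoln1 (chr8:3500453-3500500, plus strand): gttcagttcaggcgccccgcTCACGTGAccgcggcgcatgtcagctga
Ctsa (chr2:164833740-164833804, plus strand): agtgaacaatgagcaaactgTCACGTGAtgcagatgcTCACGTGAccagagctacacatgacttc
Ctsd (chr7:142387899-142387946, minus strand): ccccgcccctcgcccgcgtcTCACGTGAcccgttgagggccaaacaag
Gla (chrX:134601173-134601253, minus strand): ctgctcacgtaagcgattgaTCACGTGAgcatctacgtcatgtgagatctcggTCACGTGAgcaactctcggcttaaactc
Cln3 (chr7:126583331-126583378, minus strand): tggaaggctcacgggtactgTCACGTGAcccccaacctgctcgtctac
Atp6v0d1 (chr8:105566041-105566088, minus strand): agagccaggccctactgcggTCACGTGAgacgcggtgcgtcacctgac
Atp6v1a (chr16:44139364-44139411, minus strand): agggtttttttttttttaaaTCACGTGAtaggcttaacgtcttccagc
The first base of the core lay at position -46 from the start in Mcoln1, -99 in Ctsd, -122 in Cln3, -4 in Atp6v0d1 and -132 in Atp6v1a. Ctsa and Gla each held 2 copies, at -13 and 4 in Ctsa and at -228 and -195 in Gla. A match describes the letters in this window and is neither a bound site nor a cause of a change. Because the set was chosen around TFEB, a higher share than over all genes was built in and is no finding of these data. The 27025 genes also include genes that were not tested here.

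The regulators did not move as a block. Tfeb, the master regulator of lysosome formation, was low and level: it measured 19.9 and 18.7 CPM with oxLDL in the mutant and 19.6 CPM with oxLDL in wild type, against 20.6 and 18.0 CPM in the untreated mutant and 21.8 CPM in untreated wild type. Its log2 fold change with oxLDL was -0.06 ± 0.11 (adjusted p = 0.712). Tfe3, its relative, measured 100.1 and 113 CPM with oxLDL in the mutant and 134 CPM with oxLDL in wild type, against 145 and 152 CPM in the untreated mutant and 217 CPM in untreated wild type. All 3 oxLDL libraries were below all 3 untreated ones, and Tfe3 fell by 1.47-fold (log2 fold change -0.55 ± 0.09, adjusted p = 0.00414). Mitf, best known from melanocytes and osteoclasts, overlapped between treatments at 67.8 to 96.8 CPM over the 6 libraries, with a log2 fold change of -0.01 ± 0.16 (adjusted p = 0.977). Transcript levels do not show where in the cell these factors were, nor their phosphorylation.

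The 2 members whose products act on TFEB at the lysosome rose. Mcoln1 encodes the lysosomal calcium channel whose opening activates calcineurin, the phosphatase of TFEB, and it has the CLEAR core shown above. It measured 81.7 and 82.6 CPM with oxLDL in the mutant and 74.5 CPM with oxLDL in wild type, against 35.6 and 34.0 CPM in the untreated mutant and 39.2 CPM in untreated wild type. The libraries of each treatment lay close together and apart from the other treatment, and Mcoln1 rose 2.20-fold (log2 fold change 1.13 ± 0.10, adjusted p = 0.000397). Flcn, the gene of folliculin, measured 94.3 and 103 CPM with oxLDL in the mutant and 90.9 CPM with oxLDL in wild type, against 61.0 and 49.2 CPM in the untreated mutant and 61.2 CPM in untreated wild type. It rose 1.68-fold with no overlap (log2 fold change 0.75 ± 0.12, adjusted p = 0.00331).

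A wider list of 84 genes of the same compartments, none of them a member, was described beside the set. It too was chosen with earlier results of these data known, so it is no independent support for the members. With oxLDL 46 of the 84 rose and 8 fell, where 19.1% of all genes rose and 21.4% fell. The median log2 fold change of the 84 was 0.38. Of these 54 calls 31 held in all 12 alternative settings. In its nutrient-sensing group of 16, which holds the mTOR, Rag, Ragulator, folliculin partner and TSC genes and Tfec, 10 rose and 1 fell. Fnip2, whose product pairs with folliculin, measured 1226 and 1059.9 CPM with oxLDL in the mutant and 1167 CPM with oxLDL in wild type, against 396 and 265 CPM in the untreated mutant and 269.7 CPM in untreated wild type, a 3.73-fold rise (adjusted p = 0.000554). Lamtor3, a Ragulator subunit, rose 1.97-fold and Tsc1, an inhibitor of mTORC1, 1.73-fold, with adjusted p of 0.000690 and 0.00126. The gene that fell was Lamtor1, which anchors Ragulator to the lysosome, by 1.28-fold (adjusted p = 0.0371), a call lost on leaving out any 1 library other than mutant oxLDL replicate 2 (adjusted p up to 0.128). Other genes were singled out after their values were seen: Rragd rose 4.03-fold, Rragc 1.86-fold and Fnip1 1.81-fold, with adjusted p of 0.00137, 0.00194 and 0.00153. Of that kind too was Tfec, the TFE factor of the myeloid lineage, at 33.7, 34.0 and 27.5 CPM with oxLDL (mutant, mutant, wild type), against 19.4, 16.2 and 6.14 CPM without, a 2.49-fold rise (adjusted p = 0.00741). Mtor itself had a log2 fold change of -0.07 ± 0.08 (adjusted p = 0.545). Lamtor3 shares 15.2% of its sequence with other genes, so its counts are uncertain.

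**Figure D2:**
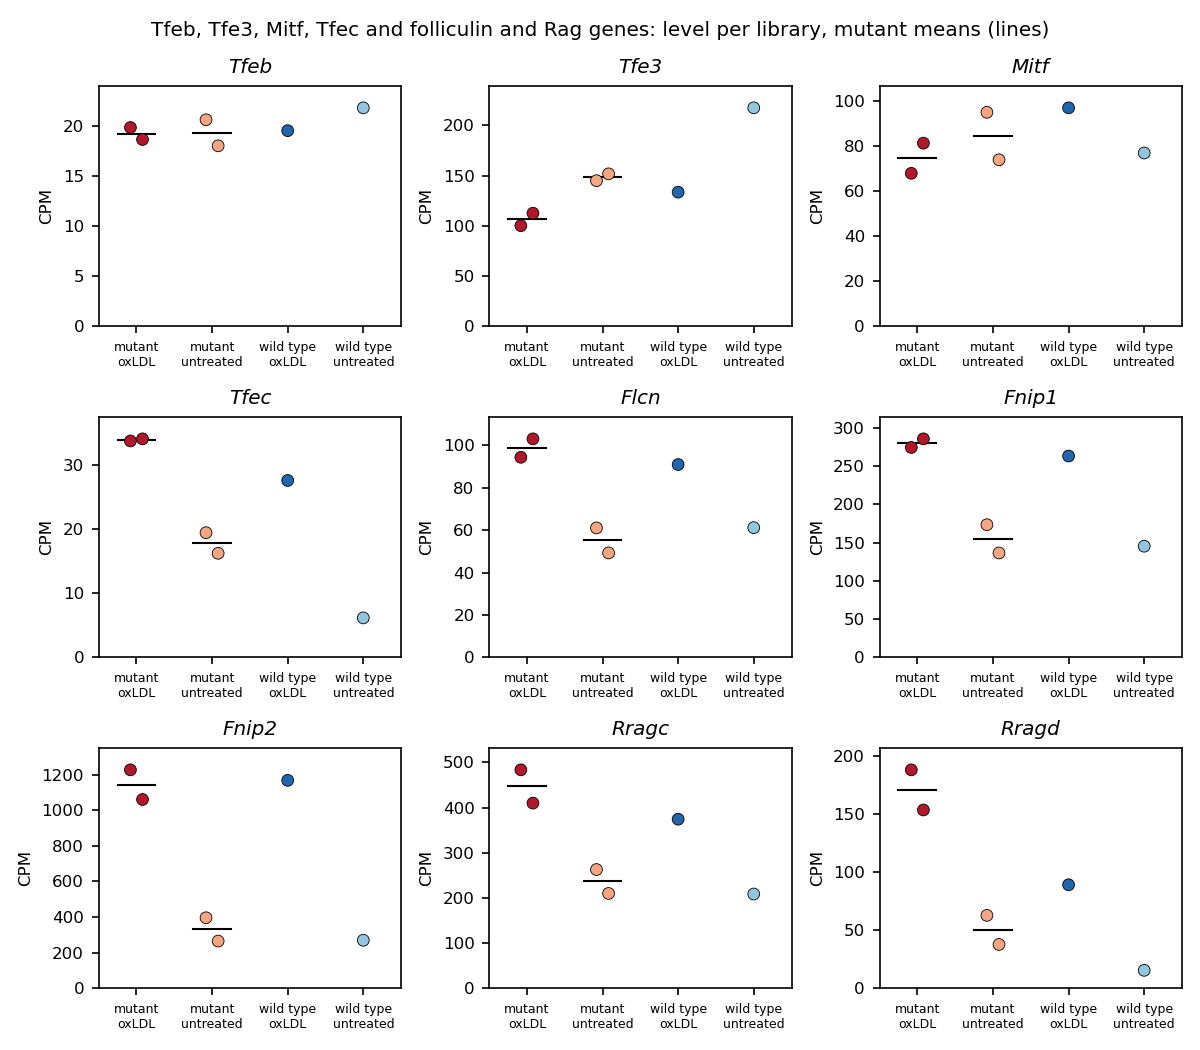
CPM (y axis) of the TFE factor genes Tfeb, Tfe3, Mitf and Tfec and of the folliculin and Rag genes Flcn, Fnip1, Fnip2, Rragc and Rragd in each library, by group (x axis). Points are libraries and lines are means of the 2 mutant libraries. Tfeb stays between 18.0 and 21.8 CPM in all 6 libraries, whereas Fnip2 is at least 1059.9 CPM in every oxLDL library and at most 396 CPM in every untreated one.

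Of 7 proteases 5 rose, 1 fell and 1 did not pass. Summed, they measured 36106 and 34293 CPM with oxLDL in the mutant and 28591 CPM with oxLDL in wild type, against 20559 and 14339 CPM in the untreated mutant and 14905 CPM in untreated wild type. Most of that sum in every library was Ctsd and Ctsb. Ctsd (cathepsin D, an aspartic protease) was the highest member per length, at 7605 CPM per kilobase on average in oxLDL and 2857 CPM per kilobase in untreated libraries, by the longest coding transcript of GENCODE release M21. Its level was 18584 and 18127 CPM with oxLDL in the mutant and 11819.7 CPM with oxLDL in wild type, against 7932 and 5350.1 CPM in the untreated mutant and 4947 CPM in untreated wild type. It rose 2.63-fold (log2 fold change 1.40 ± 0.21, adjusted p = 0.00283), but 35.8% of its sequence is shared with the gene model Gm49369, so its counts are uncertain. Tpp1, a tripeptidyl peptidase, rose 1.88-fold, Ctsz (cathepsin Z) 1.66-fold and Ctsa, a carboxypeptidase that also protects neuraminidase and beta-galactosidase, 1.56-fold. Ctsb (cathepsin B) rose 1.68-fold (adjusted p = 0.0228), a call lost on leaving out mutant oxLDL replicate 1, mutant untreated replicate 2 or either wild-type library (adjusted p up to 0.100), and in the mutant alone its change of 0.71 ± 0.26 (adjusted p = 0.0780) did not pass.

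Cathepsins H and L stood apart from that rise. Ctsh, an aminopeptidase, measured 148 and 154 CPM with oxLDL in the mutant and 178 CPM with oxLDL in wild type, against 259 and 220.1 CPM in the untreated mutant and 305 CPM in untreated wild type. Every oxLDL library was below every untreated one, and Ctsh fell 1.63-fold (log2 fold change -0.70 ± 0.09, adjusted p = 0.00185). Ctsl varied more between replicates than between treatments, at 1536, 894 and 693 CPM with oxLDL (mutant, mutant, wild type), against 1371, 862 and 624 CPM without, with a log2 fold change of 0.13 ± 0.25 (adjusted p = 0.710). In both mutant pairs Ctsl was higher in replicate 1.

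**Figure D3:**
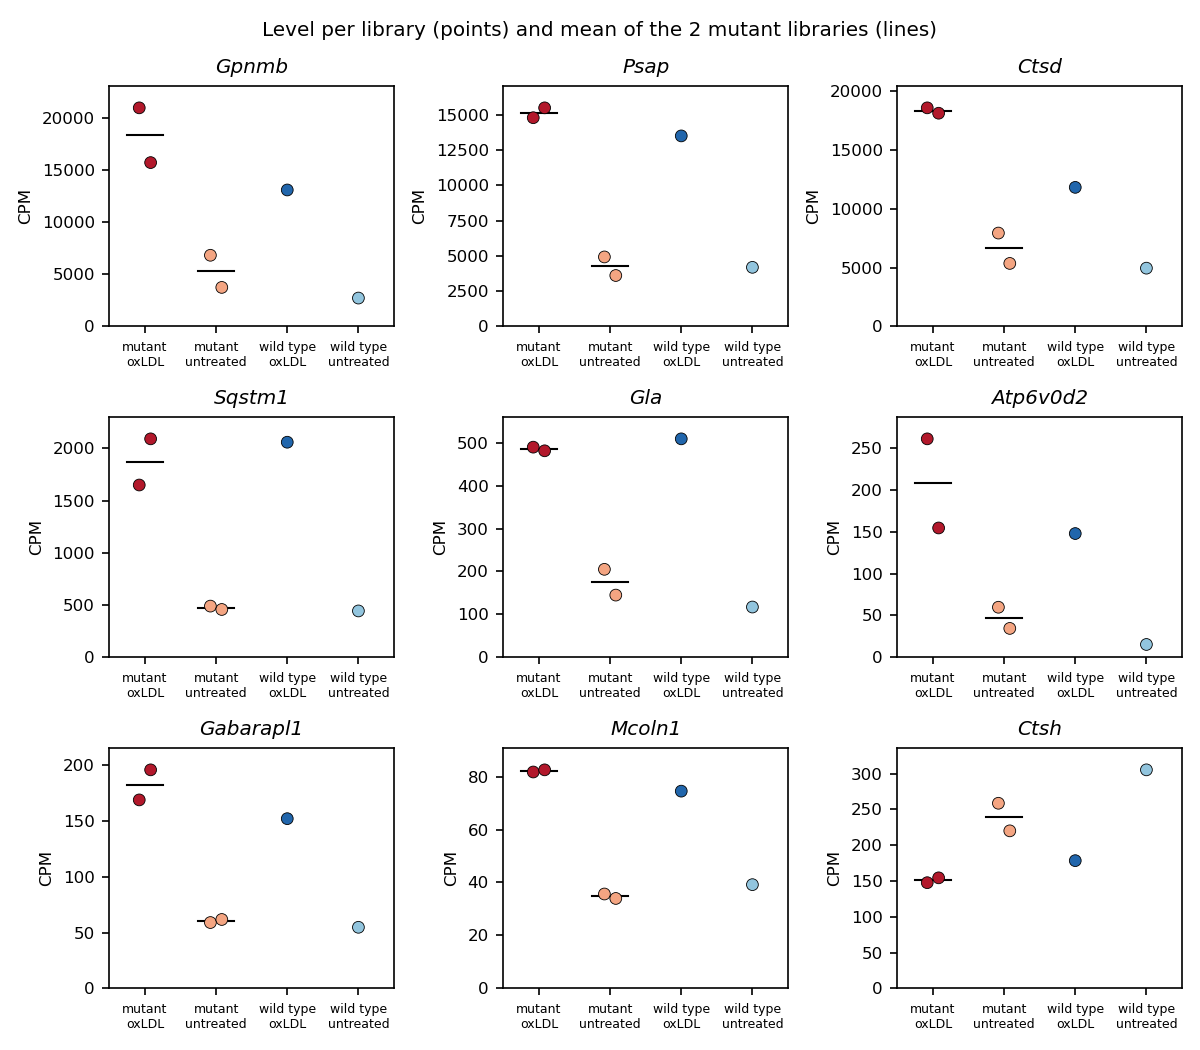
CPM (y axis, from 0) of 9 members in each library, by group (x axis), with points for libraries and lines for the means of the 2 mutant libraries. In the first 8 panels every oxLDL library lies above every untreated library, and in the panel of Ctsh every one lies below. The 2 mutant untreated points of Gpnmb, Ctsd and Atp6v0d2 are spread, with replicate 1 the higher.

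Of the 13 glycan and lipid hydrolases and other luminal proteins 7 rose, none fell and 6 did not pass, with a median log2 fold change of 0.59. Psap, the precursor of the saposins that present sphingolipids to their hydrolases, measured 14787 and 15486 CPM with oxLDL in the mutant and 13497 CPM with oxLDL in wild type, against 4918 and 3602 CPM in the untreated mutant and 4182 CPM in untreated wild type. It rose 3.44-fold (log2 fold change 1.78 ± 0.19, adjusted p = 0.000801). The 13 genes summed to 22679 and 22972 CPM with oxLDL in the mutant and 21608 CPM with oxLDL in wild type, against 11301 and 8834 CPM in the untreated mutant and 10398 CPM in untreated wild type. Psap was the largest share of that sum in every library. Gla, the alpha-galactosidase A that degrades globotriaosylceramide and holds 2 CLEAR cores above, measured 489.6 and 481 CPM with oxLDL in the mutant and 509 CPM with oxLDL in wild type, against 205 and 145 CPM in the untreated mutant and 117 CPM in untreated wild type. Its rise was 3.22-fold, at a log2 fold change of 1.69 ± 0.19 (adjusted p = 0.000955). The oxLDL libraries of Gla lay within 481 to 509 CPM whatever the genotype.

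Another 3 members of this group rose at least 2-fold. Gaa, the acid alpha-glucosidase of glycogen, measured 215, 226 and 138 CPM with oxLDL (mutant, mutant, wild type), against 98.8, 79.9 and 74.5 CPM without, a 2.24-fold rise. Naglu, which acts on heparan sulfate, measured 109, 122 and 97.4 CPM with oxLDL (mutant, mutant, wild type), against 58.4, 46.7 and 39.7 CPM without, a 2.28-fold rise. Neu1, the lysosomal sialidase, measured 143, 137 and 141 CPM with oxLDL (mutant, mutant, wild type), against 73.7, 55.4 and 69.4 CPM without, a 2.13-fold rise. These 3 changes had adjusted p of 0.000921, 0.000572 and 0.000938, without overlap between treatments. Sgsh, the sulfamidase of heparan sulfate, rose 1.48-fold (adjusted p = 0.0457), a call that ended in 6 of 12 alternative settings, among them without any 1 of the 4 mutant libraries (adjusted p up to 0.114). Lipa, the lysosomal acid lipase that frees cholesterol from lipoprotein, rose 1.93-fold at 1951, 1689 and 2373 CPM with oxLDL (mutant, mutant, wild type), against 1159, 919 and 1012 CPM without (log2 fold change 0.95 ± 0.16, adjusted p = 0.00414).

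The members of this group that did not pass were Hexa, Glb1, Gusb, Manba, Asah1 and Grn. Grn, the gene of progranulin, gave 2148 to 2538 CPM over the 6 libraries with a log2 fold change of 0.00 ± 0.13 (adjusted p = 0.996). Gusb (beta-glucuronidase) and Manba (beta-mannosidase) had log2 fold changes of 0.01 ± 0.10 and -0.01 ± 0.10 (SE), and Hexa, a subunit of beta-hexosaminidase, of 0.36 ± 0.13 (adjusted p = 0.0668). Glb1 (beta-galactosidase) gave 0.59 ± 0.23 (adjusted p = 0.0884), with the treatments overlapping.

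In the wider list hydrolases went both ways. Of its 23 hydrolases 8 rose and 5 fell, where 19.1% of all genes rose and 21.4% fell. Falls were thus about as frequent as over all genes, and the median log2 fold change of the 23 was -0.05. Ctsc, the dipeptidyl peptidase that activates granule serine proteases, measured 134 and 173 CPM with oxLDL in the mutant and 166 CPM with oxLDL in wild type, against 479 and 762 CPM in the untreated mutant and 839 CPM in untreated wild type. Its fall of 4.35-fold (log2 fold change -2.12 ± 0.21, adjusted p = 0.000611) was the largest of the list in that direction. Acp2, a lysosomal acid phosphatase, fell 2.31-fold (adjusted p = 0.000552). Named after their values were seen, Lgmn, the asparaginyl endopeptidase legumain, fell 2.27-fold and Ids, an iduronate sulfatase, 1.93-fold (adjusted p = 0.000617 and 0.00133). In Ctsc every oxLDL library was below every untreated one.

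Among 8 membrane and sterol transport proteins 5 rose and 3 did not pass. Gpnmb, a transmembrane glycoprotein of macrophages and melanocytes, measured 21011 and 15746 CPM with oxLDL in the mutant and 13113 CPM with oxLDL in wild type, against 6834 and 3742 CPM in the untreated mutant and 2718 CPM in untreated wild type. It rose 3.88-fold (log2 fold change 1.95 ± 0.29, adjusted p = 0.00278), with a SD over the 3 untreated libraries of 2143 CPM around a mean of 4431 CPM. Of the 5 melanocyte markers Dct and Tyrp1 had no count in any library, and Tyr was at 8.84 to 11.7 CPM. Mlana had counts only in mutant oxLDL replicate 1. Pmel was at 0.122 to 0.617 CPM, with every oxLDL library below every untreated one, and did not pass. Cd63, a tetraspanin of late endosomes, measured 818, 746 and 687 CPM with oxLDL (mutant, mutant, wild type), against 434, 334 and 253 CPM without, a 2.24-fold rise (adjusted p = 0.00154), and 25.9% of its sequence is shared, mostly with a pseudogene, so its counts are uncertain.

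The sterol carriers came next. Npc1, the membrane protein that exports cholesterol from the lysosome, measured 766 and 789 CPM with oxLDL in the mutant and 799 CPM with oxLDL in wild type, against 379 and 323 CPM in the untreated mutant and 286 CPM in untreated wild type. It rose 2.39-fold (log2 fold change 1.26 ± 0.12, adjusted p = 0.000526) with no overlap. Npc2, the soluble partner that hands cholesterol to NPC1, ranged from 634 to 831 CPM, with a log2 fold change of -0.05 ± 0.13 (adjusted p = 0.774). Whether the 2 genes differ from each other was not tested. Lamp1, a major glycoprotein of the lysosomal membrane, rose 1.65-fold (adjusted p = 0.00984) and Scarb2, the receptor that carries glucocerebrosidase, 1.39-fold (adjusted p = 0.00573). Lamp2 had a log2 fold change of 0.23 ± 0.14 (adjusted p = 0.226). Cln3, whose promoter holds the longer form of the CLEAR element, gave 49.2 to 60.0 CPM and a log2 fold change of -0.02 ± 0.10 (adjusted p = 0.917). In the wider list 6 of 12 membrane genes rose and 1, M6pr, the mannose 6-phosphate receptor gene, fell by 1.23-fold (adjusted p = 0.0295), a call lost on leaving out any 1 of the 6 libraries (adjusted p up to 0.128). The cystine exporter gene Ctns rose 2.35-fold and the metal transporter gene Slc11a1 1.52-fold, with adjusted p of 0.000701 and 0.0174. The call of Slc11a1 ended without either mutant untreated library (adjusted p up to 0.0733).

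**Figure D4:**
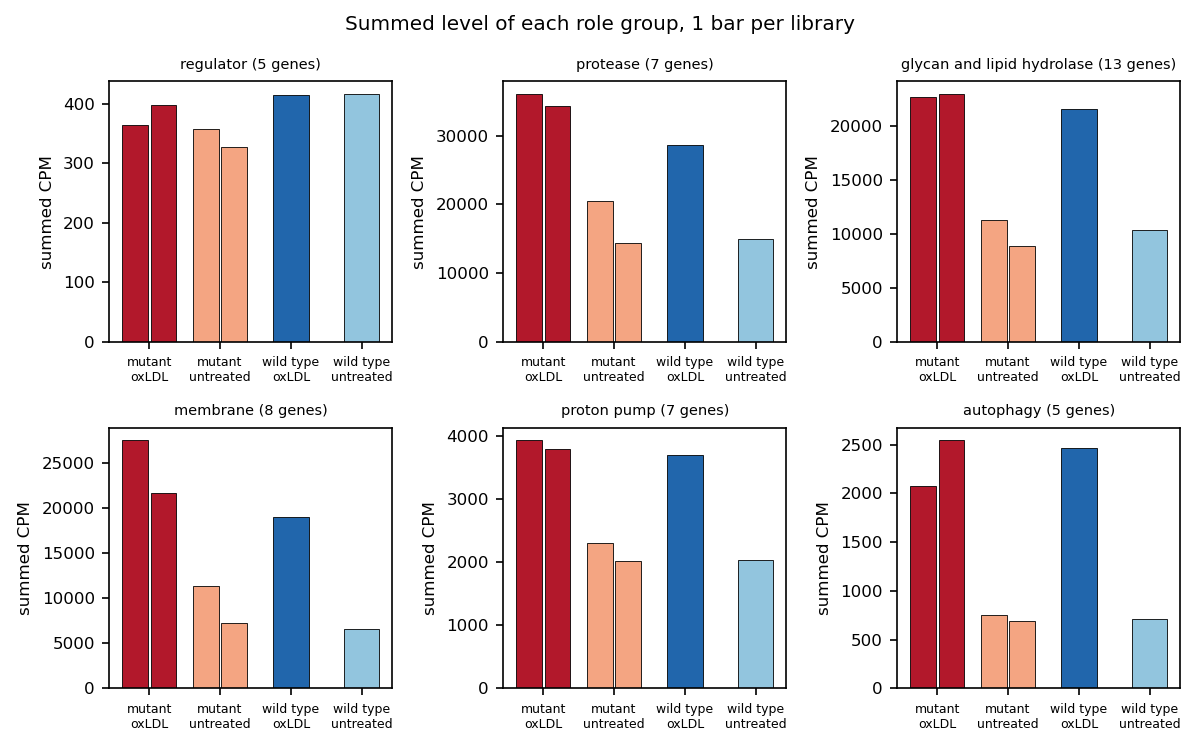
Summed CPM (y axis, from 0) of each role group of the 45 members, 1 bar per library, by group (x axis). In 5 role groups every oxLDL bar is above every untreated bar, while the 5 regulators together stay between 327 and 416 CPM. Most of the protease bars is Ctsd and Ctsb, and most of the autophagy bars is Sqstm1. Psap and Gpnmb are the largest shares of the hydrolase and membrane bars.

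Proton pump genes rose in 6 of 7 cases, with none lower and a median log2 fold change of 0.91. Atp6v0d2, the myeloid and osteoclast form of the membrane subunit d, had the largest change of the set, at 261 and 154 CPM with oxLDL in the mutant and 148 CPM with oxLDL in wild type, against 59.8 and 34.5 CPM in the untreated mutant and 15.3 CPM in untreated wild type. Its log2 fold change was 2.50 ± 0.35 (adjusted p = 0.00223), or 5.67-fold. The lowest level was in wild type untreated, and the oxLDL libraries spread between 148 and 261 CPM. The 9 osteoclast markers summed to 159.9 to 172 CPM in oxLDL libraries, against 351 to 385 CPM in untreated libraries, with Calcr at 0 counts everywhere and Oscar at most 0.0882 CPM. Nfatc1 and Tnfrsf11a made up most of that sum. Of the 6 osteoclast markers tested 4 fell and 2 did not pass. Ctsk went the other way without passing (log2 fold change 1.01 ± 0.44, adjusted p = 0.111). The common form, Atp6v0d1, with the CLEAR core at its start site, rose 1.66-fold (adjusted p = 0.00265).

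In the peripheral part of the pump, Atp6v1c1, the subunit that links it to the membrane part, measured 475 and 480.4 CPM with oxLDL in the mutant and 408 CPM with oxLDL in wild type, against 193 and 175 CPM in the untreated mutant and 176 CPM in untreated wild type, a log2 fold change of 1.32 ± 0.09 (adjusted p = 0.000179). Atp6v1a, the catalytic subunit, measured 1577, 1547 and 1574 CPM with oxLDL (mutant, mutant, wild type), against 744, 625 and 599.7 CPM without, with 2.39-fold and an adjusted p of 0.000532. Atp6v1h, a regulatory subunit, rose 1.88-fold and Atp6ap1, an accessory protein, 1.40-fold, with adjusted p of 0.000329 and 0.00622. Atp6v1b2, the subunit that alternates with Atp6v1a in the ATPase ring, did not pass: it stayed between 629 and 721 CPM, with a log2 fold change of 0.08 ± 0.09 (adjusted p = 0.538). In the wider list 8 of 10 further pump genes rose and none fell, with log2 fold changes from 0.34 to 1.09 over all 10. The subunit genes Atp6v1g1, Atp6v0b and Atp6v1f rose 2.12-fold, 1.41-fold and 1.57-fold, the first with 12.5% of its sequence shared with other genes.

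Of the 5 autophagy members 4 rose. Sqstm1 encodes p62, the receptor that brings ubiquitinated cargo to autophagosomes, and is also a known target of the oxidative stress factor NRF2. It measured 1649.6 and 2092 CPM with oxLDL in the mutant and 2059 CPM with oxLDL in wild type, against 490.3 and 458 CPM in the untreated mutant and 444 CPM in untreated wild type. The treatments did not overlap, and it rose 4.16-fold (log2 fold change 2.06 ± 0.14, adjusted p = 0.000176). Gabarapl1, an ATG8-family protein of the autophagosome membrane, measured 169 and 196 CPM with oxLDL in the mutant and 152 CPM with oxLDL in wild type, against 59.0 and 61.8 CPM in the untreated mutant and 54.8 CPM in untreated wild type, a 2.94-fold rise with the smallest adjusted p of the 45 (log2 fold change 1.55 ± 0.09, adjusted p = 0.000124). Map1lc3b, the LC3 gene of the same family, rose 1.36-fold (adjusted p = 0.0151) and Wipi1, a phosphoinositide-binding protein of early autophagosomes, 1.33-fold (adjusted p = 0.0265). The call of Map1lc3b ended without mutant oxLDL replicate 1 (adjusted p = 0.0529). That of Wipi1 ended without any 1 of the libraries other than mutant oxLDL replicate 2 (adjusted p up to 0.105). Uvrag, of the Beclin complex, gave 0.25 ± 0.10 (adjusted p = 0.0838) and did not pass.

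In the wider list 14 of 23 autophagy genes rose and 1 fell, with log2 fold changes from -0.52 to 0.95. Tax1bp1, another cargo receptor, rose 1.93-fold, Vps18, of the tethering complexes that fuse vesicles with lysosomes, 1.69-fold, and Atg13, of the initiating kinase complex, 1.65-fold. The gene that fell was Rubcn, given in the tables as 1700021K19Rik, whose product restrains autophagosome maturation, by 1.43-fold (adjusted p = 0.0314), a call lost on leaving out mutant oxLDL replicate 2, mutant untreated replicate 2 or either wild-type library (adjusted p up to 0.0993). Becn1 and Ulk1, which start autophagy, had log2 fold changes of -0.09 ± 0.09 (adjusted p = 0.499) and 0.10 ± 0.12 (adjusted p = 0.561).

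The genotype comparison asked whether the set differed between mutant and wild-type macrophages. Across treatments (4 mutant against 2 wild-type libraries) none of the 45 passed edgeR's test, where 4.05% of all genes did. At an unadjusted p under 0.05 there were 10 members, against 24.4% of all genes, and DESeq2 called 4 higher and 2 lower. The members' log2 fold changes ran from -0.61 (Asah1) to 0.99 (Atp6v0d2), with a median of 0.00. In 1 member, Ctsl, every mutant library was higher than both wild-type libraries, as in 8.49% of all genes, and in 1, Asah1, every one was lower, as in 7.78%. On the log2 scale Ctsl differed by 0.82 ± 0.27 (adjusted p = 0.138), Tfe3 by -0.44 ± 0.10 (adjusted p = 0.0558) and Atp6v0d2 by 0.99 ± 0.37 (adjusted p = 0.167), and none of these passed.

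Asah1, the acid ceramidase that cleaves ceramide, was the member with a genotype call. With oxLDL it measured 482 and 506 CPM in the mutant, against 644 CPM in wild type. Without oxLDL it measured 464 and 412 CPM in mutant libraries, against 775 CPM in wild type. In untreated cells it was lower in the mutant, at -0.82 ± 0.13 (adjusted p = 0.0303) on the log2 scale, the 1 member of 45 called there, where 7.06% of all genes passed and 2.82% were lower. This call rests on 1 wild-type library and ended without mutant untreated replicate 1 (adjusted p = 0.0844) or replicate 2 (adjusted p = 0.0790). The wild type untreated library also holds the neutrophil transcripts given above, whose part in this result was not tested, and the pancreatic transcripts, whose 16 markers were all called lower in the untreated mutant and which cannot be told apart from genotype here. Without the filter on low counts 5 members were higher and 3 lower in untreated cells, where calls over all genes rose as well. DESeq2 called 1 higher and 2 lower. Neither of these counts is set here against the share of all genes called, so neither is read as a result about the members. Among oxLDL-treated cells Asah1 differed by -0.38 ± 0.14 (adjusted p = 0.288), and across treatments by -0.61 ± 0.13 (adjusted p = 0.0533).

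In oxLDL-treated cells none of the 45 passed edgeR's test between genotypes, where 0.481% of all genes did. There 4 members had an unadjusted p under 0.05, against 14.3% of all genes, and DESeq2 called 1. Outside the set, 3 of the 84 genes of the wider list passed across treatments, or 3.57%, where 4.05% of all genes did. They were named after their values were seen. Ctsf, a papain-like cathepsin, was higher in mutant libraries, at 17.8 to 21.5 CPM, against 4.28 and 8.18 CPM in wild-type libraries (log2 fold change 1.67 ± 0.21, adjusted p = 0.0219). Lgmn was lower, at -0.75 ± 0.12 (adjusted p = 0.0341) and Atp6v1e1, a pump subunit, at -0.44 ± 0.08 (adjusted p = 0.0477), both log2 fold changes. Ctsf was the only gene of the wider list that passed in oxLDL-treated cells too, at 2.11 ± 0.21 (adjusted p = 0.0293). In untreated cells 8 of the 84 passed, where 7.06% of all genes did: Ctsf, Igf2r, Rragd and Tfec were higher in the mutant, and Lgmn, Ids, Laptm4a and Laptm5 were lower. Rragd and Tfec had log2 fold changes of 1.69 ± 0.33 (adjusted p = 0.0416) and 1.53 ± 0.18 (adjusted p = 0.0183). Each of these calls was lost when 1 library or another was left out. Those of Ctsf ended without mutant untreated replicate 1 or 2 (adjusted p up to 0.0887 across treatments and 0.0712 with oxLDL). That of Lgmn ended without either of these or without wild type untreated (up to 0.164), and that of Atp6v1e1 without any 1 of the 6 libraries (up to 0.202). Without mutant untreated replicate 1, Rragd and Tfec no longer passed between genotypes (adjusted p = 0.0782 and 0.0674).

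Whether oxLDL acted differently in the genotypes was tested as an interaction. No member passed edgeR's test, where 0.489% of all genes did, and none had an unadjusted p under 0.05 or was called by DESeq2. A replicate block, 1 of the alternative settings, did call Atp6v0d2, as given below, though no label pairs the replicate numbers. The differences of the log2 response, mutant minus wild type, ran from -1.12 ± 0.58 (adjusted p = 0.543) for Atp6v0d2 to 0.63 ± 0.29 (adjusted p = 0.494) for Sgsh, with a median of 0.08. For Atp6v0d2 the response was 2.14 ± 0.34 (SE) in the mutant and 3.26 in the 1 pair of wild-type libraries, on the log2 scale. Gla responded by 1.47 ± 0.17 in the mutant and by 2.12 in wild type, a difference of -0.65 ± 0.30 (adjusted p = 0.494). Sqstm1 responded by 1.98 ± 0.16 in the mutant and by 2.21 in wild type, with a difference of -0.23 ± 0.27 (adjusted p = 0.806). With SE between 0.14 and 0.60 on the log2 scale over the members, the intervals of these differences are wide, and a missed threshold does not show that the genotypes respond alike.

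**Figure D5:**
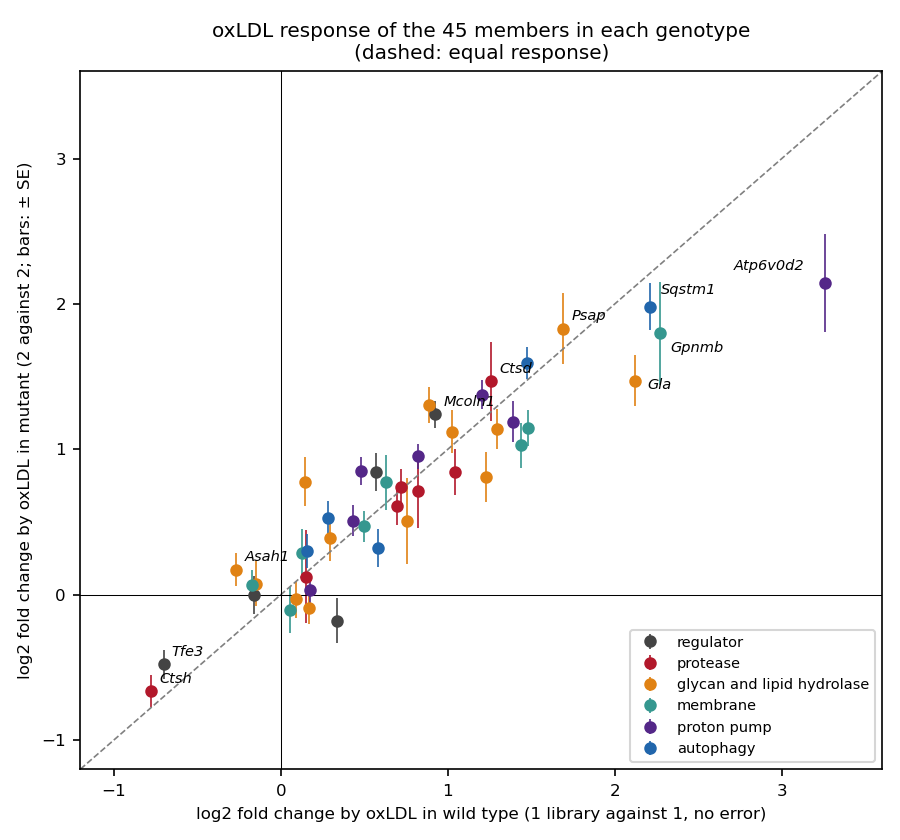
Log2 fold change by oxLDL of the 45 members in mutant cells (y axis, SE bars, 2 libraries against 2) and in wild-type cells (x axis, 1 library against 1, no error), coloured by role. The dashed line marks an equal response. Points run from Ctsh and Tfe3, below 0 in both genotypes, up to Sqstm1, Gpnmb and Atp6v0d2. Furthest right of the line is Atp6v0d2, at 2.14 in mutant and 3.26 in wild-type cells. Gla and Gpnmb also lie right of the line, and Sgsh lies above it.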

How the data were processed

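RNA of 6 macrophage libraries was sequenced as 150-base paired ends from 250 ng input with a stranded polyadenylated RNA kit, per the labels' protocols. Bowtie2 2.1.0, RSEM 1.2.15 and edgeR are listed by the submitters' processing notes, together with the human build hg19. The symbols are those of mouse genes, and which mouse build was used is not given in the sources read. Expected counts from RSEM, 1 value per gene and library, were deposited and can hold fractions where reads fit several genes and were rounded here. A second deposited table holds a TMM-normalised signal, from which whole reads were recovered for 100% of values within a tolerance of 0.0001, matching the rounded counts for 99.89% of genes or more per library.

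Counts were tested with edgeR 4.0.16 (R 4.3.3, quasi-likelihood F-test, TMM, filterByExpr, Benjamini-Hochberg). A model of genotype and treatment gave the comparisons across the other factor, and a model of 4 group means gave the others, with single wild-type libraries assumed to vary like the mutant pairs. SE is the size of the log2 change divided by the square root of F. Wild-type oxLDL was described from at least 5 CPM, a prior count of 2 and at least 2-fold. Fits were also run on counts simulated for all libraries with the spread estimated from these data. Such a run cannot test whether the single wild-type libraries vary like the mutant pairs. Shared sequence is the percentage of 75-base stretches of the longest coding transcript found in other genes. The alternatives were DESeq2 1.42.0, its size factors, no filter, a replicate block, the pancreatic split as a term, mutant libraries only, each library left out and, chosen after seeing the data, the recovered reads. Per-library values were set for regulators, members changed at least 2-fold or called between genotypes and those highest in level, and from each class of the wider list the 3 genes with the smallest p, of which some are not reported here. Other genes of the wider list that are named were chosen after their values were seen. The members and lists were chosen with earlier results of these data known.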

Additional observations from a re-analysis of the deposited data

How the results depend on the processing

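The response to oxLDL across genotypes held: 27 of its 31 called members, 29 higher and 2 lower, passed in all 12 alternatives. The libraries left out in turn gave 25 to 29 members higher and 2 lower. The recovered reads, 1 of the 12, matched the rounded counts for at least 99.89% of genes, so that setting could hardly change a call. In the mutant alone, leaving out a library gave 19 to 28 members higher, 1 to 2 lower and 2626 (without mutant untreated replicate 2) to 4057 of all genes called. Genotype counts moved most. Across treatments they were 3 higher, 2 lower and 1387 of all genes without the filter, 4, 2 and 1513 with DESeq2, and 2 lower and 1181 of all genes with the pancreatic split as a term, while leaving out a library gave 0 to 1 members lower and 8 (without mutant untreated replicate 2) to 877 (without wild type oxLDL replicate 1) of all genes. In untreated cells they were 2 lower with DESeq2 size factors, 5 higher, 3 lower and 2435 of all genes without the filter, and 1 and 2 with DESeq2. For DESeq2 and its size factors the count of all genes is not given here, so those member counts are not read as a result. Leaving out a library there gave 0 to 1 higher, 0 to 2 lower and 80 (without mutant untreated replicate 1) to 1821 (without mutant oxLDL replicate 1) of all genes. In oxLDL-treated cells they were 2 higher and 974 of all genes without the filter, 1 and 391 with DESeq2, and 5 (without mutant untreated replicate 1) to 473 (without mutant oxLDL replicate 2) of all genes with a library left out. The interaction called 546 genes without the filter, 221 with DESeq2 and 19 (without mutant untreated replicate 1) to 246 (without mutant oxLDL replicate 1) with a library left out. An edgeR test of wild type that assumes the spread of the mutant pairs gave 19 members higher, 2 lower and 2946 of all genes. The cause of these moves was not tested. The signs that turned were of uncalled changes near 0: Mitf across genotypes gave 0.0026 without the filter, 0.11 without mutant oxLDL replicate 1, 0.15 without mutant untreated replicate 1 and 0.078 with the pancreatic split as a term, over a range of -0.18 to 0.15 with a library left out, and in the mutant -0.34 to 0.026 with a library left out. Tfeb in the mutant gave 0.011 without the filter, 0.047 without mutant oxLDL replicate 2 and -0.095 to 0.11 over the libraries left out.

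Libraries share replicate numbers in their titles, but nothing says that a number pairs them, and the deviations of same-numbered mutant libraries correlated at 0.204 over 2 pairs. With a replicate block, 1 member was higher across treatments, given without the count of all genes and not read as a genotype result. With that block 5 members were higher and 2 lower in untreated cells (1870 of all genes), and 2 were higher in oxLDL-treated cells (462 of all genes). The interaction in that edgeR fit called 162 genes and 1 member lower, Atp6v0d2 (adjusted p = 0.0352). Total counts of 11281692 to 24273551 per library limit the precision of the lowest levels. Depth is not the only limit. The median variance within the mutant oxLDL pair was 6.80 times counting noise, and within the mutant untreated pair 4.69 times. The level of Atp6v0d2 in untreated wild type, 15.3 CPM, rests on 1 library.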

Other observations

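Among the macrophage markers, Cd68, which encodes a glycoprotein of late endosomes and lysosomes, measured 2135 and 1884 CPM with oxLDL in the mutant and 1800.5 CPM with oxLDL in wild type, against 1336 and 965 CPM in the untreated mutant and 858 CPM in untreated wild type, a log2 fold change of 0.89 ± 0.16 (adjusted p = 0.00562) with edgeR's test. Emr1, the gene of the F4/80 surface antigen, measured 823 and 815 CPM with oxLDL in the mutant and 1095 CPM with oxLDL in wild type, against 4425 and 4417 CPM in the untreated mutant and 6185 CPM in untreated wild type, a log2 fold change of -2.45 ± 0.12 (adjusted p = 9.10e-05). Both are members of the marker list and were named after their values were seen.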
